A study of Mus musculus with 8 samples.

Results

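The gene examined here was Ddx4, 1 of the 10720 genes in a table of single hematopoietic stem cells (HSCs) from mouse bone marrow. It was chosen because its counts differed between cells labelled KO and WT for Med23, a subunit of the Mediator complex, so that difference is given as a description and not as a test. The analysis covers its unique molecular identifier (UMI) counts, the share of cells that held it, its relation to the oocyte transcripts Zp3, H1foo, Dppa3 and Gdf9, and the genes that varied with it.

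HSCs were sorted from adult C57BL/6 mice as LSK cells (no lineage markers, with Sca1 and c-Kit) that were CD150+CD34-CD48-, picked by hand, and sequenced from the 3' end of polyadenylated RNA. Both genotypes carried the floxed Med23 allele (Med23 L/L) and received repeated poly(I:C) injections. KO mice also carried Mx1-cre and WT mice were littermates without it. The Mx1 promoter answers to interferon in blood cells and in other tissues, so deletion in KO mice need not be limited to HSCs. The labels name 4 libraries of each genotype. The columns of the table give only a genotype and a cell number, so each genotype was treated as 1 pool with no replicate. Every interval below covers counting error only, not the spread between animals or libraries. Intervals of pooled UMI counts and of their ratios treat each UMI as independent, so they leave out the spread between cells too.

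Ddx4, also called Mvh or Vasa, encodes an ATP-dependent RNA helicase of the DEAD-box family that marks germ cells of both sexes. Its protein gathers in the granules around the nucleus of germ cells and acts in the piRNA pathway, which silences transposons. In somatic tissues the gene is normally silent, and the CG-rich promoters of a group of germ-line genes are held silent there by DNA methylation and by repressor complexes. Zp3 encodes a protein of the egg coat, H1foo the oocyte linker histone, Dppa3 a maternal factor of egg and early embryo, and Gdf9 a growth factor secreted by oocytes.

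The start region of Ddx4 is shown because it differs in base composition from that of Zp3, the only one of the 4 oocyte genes matched in the RefSeq promoter table (GRCm38.p6). Each window runs from 250 bases before to 50 bases after the annotated start. The Ddx4 window is chr13:112652261-112652560 on the minus strand and the Zp3 window is chr5:135979855-135980154 on the plus strand. Both are printed 5′ to 3′ in lower case with every CG dinucleotide in capitals.
Ddx4: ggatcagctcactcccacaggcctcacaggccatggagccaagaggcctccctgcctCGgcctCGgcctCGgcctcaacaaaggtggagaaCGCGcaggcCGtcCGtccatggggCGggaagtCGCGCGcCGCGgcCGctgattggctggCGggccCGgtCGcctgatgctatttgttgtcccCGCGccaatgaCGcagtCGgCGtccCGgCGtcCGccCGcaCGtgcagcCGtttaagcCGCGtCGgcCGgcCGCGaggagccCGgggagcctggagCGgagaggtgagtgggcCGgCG
Zp3: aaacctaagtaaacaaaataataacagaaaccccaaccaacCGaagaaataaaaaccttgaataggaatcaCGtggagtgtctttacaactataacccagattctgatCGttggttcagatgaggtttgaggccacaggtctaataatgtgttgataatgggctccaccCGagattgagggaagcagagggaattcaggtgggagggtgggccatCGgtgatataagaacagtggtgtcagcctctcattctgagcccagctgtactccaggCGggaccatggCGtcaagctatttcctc
The Ddx4 window held 38 CG dinucleotides and was 72% G or C. Among 32851 mouse promoter windows of the same length, 4.95% held as many CG dinucleotides or more, and the median was 7. The Zp3 window held 7 and was 46.3% G or C. The Ddx4 window also held the 6 letters CACGTG (the E-box, the same on both strands) from position 222, as did the windows of Zp3 from position 70 and of Mov10l1, a gene described below, from position 5, and the 7 letters GCGGGAA (either strand) from position 115. CACGTG occurred in 7.15% of all windows, GCGGGAA in 4.60% and both in 0.457%, and the 2 matches in the Ddx4 window did not overlap. These letters were searched after the sequence had been read. DNA methylation and factor binding were not measured in these cells.

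The analysis used the 493 cells with at least 2000 detected genes and 20000 UMIs, 259 labelled WT and 234 labelled KO. They held 21475782 and 16180546 UMIs, with medians of 59649 and 50281 per cell. All 7 HSC markers (Kit, Ly6a, Slamf1, Procr, Mecom, Hlf and Fgd5) were detected in both pools, at 881 counts per 1000000 UMIs (CPM) in sum in WT and 651 CPM in KO, with all UMIs counted. Slamf1, which encodes the sort marker CD150, had 837 UMIs in WT and 132 in KO, a log2 difference of -2.26 (-2.53 to -1.99). The Med23 transcript did not separate the labels, with 122 UMIs in WT and 117 in KO cells, or 5.68 and 7.23 CPM. It was found in 18.1% (13.6 to 23.4) of WT and 11.5% (7.74 to 16.3) of KO cells, or in 8.49% and 5.98% at equal depth, and 2 KO cells held 28 and 22 of its UMIs. The study reports efficient loss of Med23 in the hematopoietic system of KO mice after poly(I:C). The part of Med23 removed by Cre was not given in the sources used here, and the cells are therefore called labelled WT and labelled KO. Within the WT pool, 73 cells held over 1000 CPM of a list of oocyte genes, of which 38 of 44 were in the table and to which Ddx4 did not belong. Only 3 cells labelled KO passed that level. These cells are called oocyte-RNA cells below, which names the transcripts they held and not a cell type, and the level and share of Ddx4 are given with and without them, as are the germ-line lists, the silencers, the helicases and the neighbours. Correlations across whole pools, co-detection, blocks of cell numbers and groups of depth are over all kept cells. All 7 HSC markers were detected in the 73 WT oocyte-RNA cells too. With every cell thinned at random to 20000 UMIs, they summed to 979 CPM there and to 1029 CPM in the other 186 WT cells.

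Ddx4 was much more abundant in the cells labelled KO. All 102 Ddx4 UMIs of the WT pool together gave 4.75 CPM (95% exact Poisson interval 3.87 to 5.77), and the 1007 of the KO pool gave 62.2 CPM (58.5 to 66.2). The log2 ratio of KO over WT was 3.71 (3.42 to 4.02), rank 3 among 9325 genes (those averaging 0.5 UMI or more per kept cell), after Car1 and 4631405J19Rik. Of all 10720 genes, 6.98% were at least 2-fold higher in KO. Since the rule chose Ddx4 on this contrast, its place among them is not a finding. After every cell was thinned at random to 20000 UMIs, Ddx4 was found in 15 of 259 WT cells (5.79%, exact binomial interval 3.28 to 9.37) and in 73 of 234 KO cells (31.2%, 25.3 to 37.6). Without thinning it was found in 28 WT cells (10.8%) and 94 KO cells (40.2%).

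The oocyte transcripts went the other way. At 20000 UMIs, Zp3 was found in 44.8% of WT and 8.12% of KO cells, H1foo in 38.6% and 7.69%, Dppa3 in 44.8% and 10.7%, and Gdf9 in 31.7% and 4.70%. HSCs should lack Zp3, so its share served as the background. The Ddx4 share in WT lay below the Zp3 share of the same pool and is not read as a share of cells that express Ddx4. In KO the Ddx4 share lay above that of all 4 oocyte transcripts, and the intervals did not overlap. Ddx4 was chosen on the contrast of the pools and the 4 transcripts for comparison with it. The order of their shares is therefore a description and not a test against a background. Median depths were those of the pools given above.

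**Figure D1:**
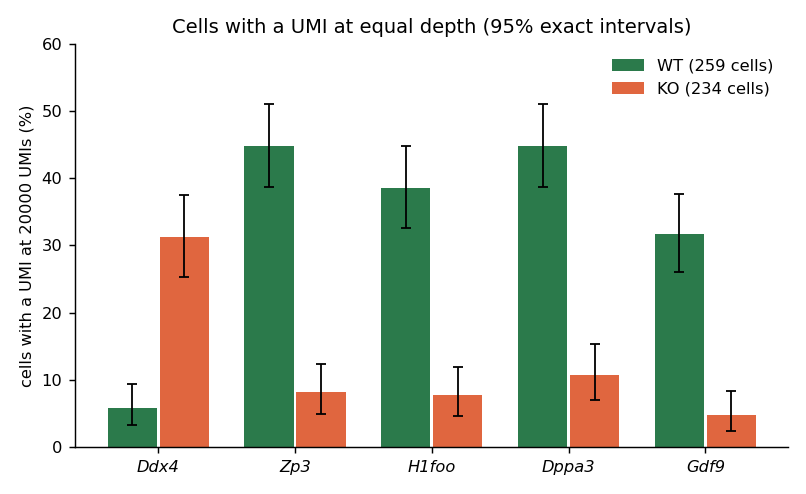
Share of cells (percent, axis from 0) with at least 1 UMI of Ddx4 and of the 4 oocyte transcripts after thinning to 20000 UMIs, for 259 cells labelled WT and 234 labelled KO, with 95% exact binomial intervals as error bars. The Ddx4 bar is 5.79% in WT and 31.2% in KO, and each of the other 4 genes has its higher bar in WT.

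Ddx4 was spread unevenly over the KO cells. In KO, 140 cells held no Ddx4 UMI, 23 held 1, 24 held 2 to 5, 36 held 6 to 20 and 11 held over 20. The cells with the most held 109, 99, 61, 54 and 40 UMIs, and 10 cells held 50.4% of all Ddx4 UMIs of the pool. Cells with Ddx4 had a median of 5.5 UMIs and spanned 5.59 to 944 CPM, with a median of 96.5 CPM. The cell with the most held 10.8% of the KO total, so no single cell carried the pooled level.

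WT cells with Ddx4 mostly held a single UMI. There were 231 WT cells with none, 15 with 1, 9 with 2 to 5, 3 with 6 to 20 and 1 with over 20. The cells with the most held 35, 15, 9 and 6 UMIs, and the first of these alone held 34.3% of the WT total. Leaving out the cell with the most Ddx4 UMIs in each pool changed the log2 ratio to 4.18 (3.82 to 4.56).

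Genes of like level were about as uneven over the KO cells. The Fano factor, the variance over the mean of counts across cells at equal depth, was 5.12 for Ddx4 in KO, beside a median of 4.75 over 1480 genes whose mean lay within 1.3-fold of its own. Of those genes, 60.2% had a lower value. In the WT pool the factor was 4.83 for Ddx4 and 3.56 for the median of 1057 genes of like mean, and 75.9% of them lay below it. Without the oocyte-RNA cells the WT value of Ddx4 was 1.72, below the median of 2.16.

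**Figure D2:**
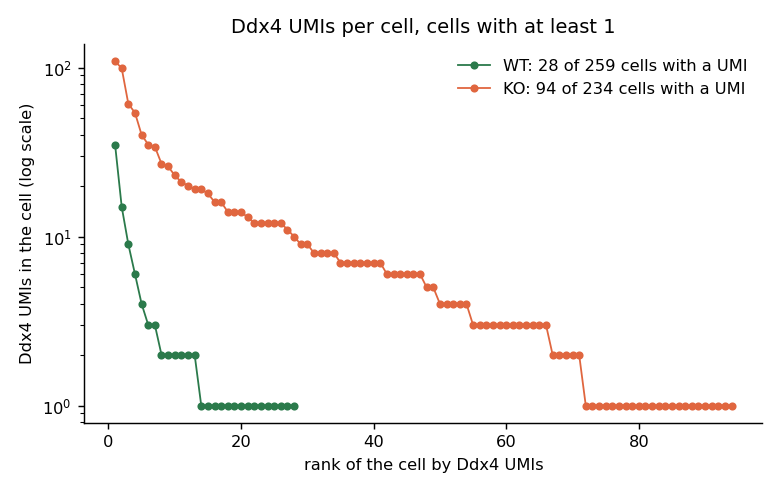
Ddx4 UMIs in each cell with at least 1 (log axis), against the rank of the cell within its pool. The KO curve falls from 109 UMIs over 94 cells, and the WT curve from 35 UMIs over 28 cells of which 15 hold 1.

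Most of the WT Ddx4 counts lay with the oocyte transcripts. The 73 WT oocyte-RNA cells held 83 of the 102 WT Ddx4 UMIs, 81.4% (72.4 to 88.4), and 27.6% of all WT UMIs. The same cells held 95.7% of the WT Zp3 UMIs, 97.3% of H1foo, 94.7% of Dppa3 and 93.9% of Gdf9. Ddx4 was found in 17 of these 73 cells, at 14 CPM (11.2 to 17.4) in sum, and 1 cell held 35 of the 83 UMIs. The other 186 WT cells held 19 Ddx4 UMIs in 11 cells, 1.22 CPM (0.736 to 1.91).

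Most of the KO counts lay outside the oocyte-RNA cells. The 3 KO oocyte-RNA cells held 13 Ddx4 UMIs, all in 1 cell. The other 231 KO cells held 994, or 61.7 CPM (58.0 to 65.7). Between the cells that were not oocyte-RNA cells, the log2 ratio of KO over WT was 5.66 (5.01 to 6.40), larger than over all kept cells. There the share of cells with Ddx4 at equal depth was 3.23% (1.19 to 6.89) in WT and 31.2% (25.3 to 37.6) in KO.

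**Figure D3:**
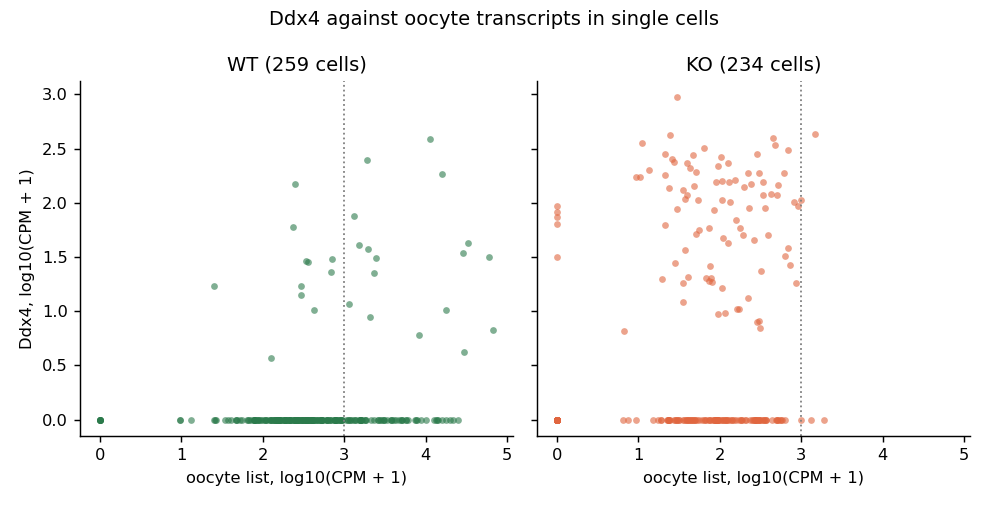
Each point is 1 cell, with the summed CPM of the 38 oocyte genes on the x axis and the CPM of Ddx4 on the y axis, both as log10(CPM + 1), for WT (left) and KO (right). The dotted line marks 1000 CPM of the oocyte list. In WT 73 cells lie to its right, with 83 of 102 Ddx4 UMIs. In KO 1 cell with Ddx4 lies to its right. The other KO cells with Ddx4 lie to its left, 29 of them at 200 to 1000 CPM and 5 at undetected oocyte levels.

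The count of Ddx4 relative to each oocyte transcript is given as a description, since cells were split by their oocyte level and Ddx4 was chosen on the contrast of the pools. In the WT oocyte-RNA cells there were 1.03 Ddx4 UMIs (0.816 to 1.27) per 100 Zp3 UMIs, 0.907 per 100 of H1foo, 1.21 per 100 of Dppa3 and 2.49 per 100 of Gdf9. In the other 186 WT cells the values were 5.19 per 100 of Zp3, 7.45 of H1foo, 4.92 of Dppa3 and 8.80 of Gdf9. In the other 231 KO cells there were 938 Ddx4 UMIs (767 to 1157) per 100 Zp3 UMIs, 549 per 100 of H1foo, 710 per 100 of Dppa3 and 3106 per 100 of Gdf9. Over the whole oocyte list the values were 1.31 Ddx4 UMIs per 1000 in the WT oocyte-RNA cells and 428 per 1000 in the other KO cells.

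Ddx4 was also present in KO cells in which no oocyte transcript was counted. Tle6 and Zbed3 were left out of the oocyte list for this count, because they made up 62.3% of the KO oocyte UMIs and 6.07% of those in WT, and blood cells may express them. This shorter list was chosen after the data had been seen. In KO, 84 cells held none of the remaining 36 oocyte genes, and these cells held 172 Ddx4 UMIs in 23 cells, 36.1 CPM (30.9 to 41.9). With the full list, 34 KO cells held no oocyte UMI, and they held 14 Ddx4 UMIs in 5 cells, 8.75 CPM (4.78 to 14.7), below the 84.3 CPM of the 63 KO cells with up to 50 CPM of the full list. The 34 cells had a median of 36274 UMIs and the 63 cells of 55159. In WT, 21 cells held none of the 36 genes, and Ddx4 was at 0 in all 21, which at 3 counts allows a share of cells with a UMI of up to 14.3% and a level of up to 1.96 CPM (upper ends of the exact intervals 16.1% and 2.41 CPM).

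Across classes of the oocyte level by the shorter list, without Tle6 and Zbed3, Ddx4 was highest in the top class in WT. In KO the classes below the top had no such order with this list, and the top class rested on 1 cell. In WT it was at 0.783 CPM in 23 cells with under 50 CPM of oocyte genes, at 0.470 CPM in 72 cells with 50 to 200, at 2.72 CPM in 72 cells with 200 to 1000 and at 14.2 CPM in 71 cells above that. In KO the values were 76.9 CPM in 96 cells, 51.9 CPM in 34 cells and 72.9 CPM in 17 cells. The 3 KO cells above that were at 162 CPM (86.0 to 276), with all 13 Ddx4 UMIs in 1 cell. The intervals of the last 3 WT classes did not overlap each other, and the first class held only 2 UMIs. With the full list, the KO levels fell across the same classes below the top. They were 84.3 (76.6 to 92.6), 64.1 (57.5 to 71.3) and 50.4 CPM (43.7 to 57.9). The KO cells with no oocyte UMI were at 36.1 CPM with the shorter list and 8.75 CPM with the full list.

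Whether Ddx4 and the oocyte transcripts were found in the same KO cells depended on the depth counted. At 20000 UMIs, Ddx4 was found in 20 of 54 KO cells that held a UMI of Zp3, H1foo, Dppa3 or Gdf9 (37.0%, 24.3 to 51.3) and in 53 of 180 that held none (29.4%, 22.9 to 36.7). In WT it was found in 14 of 184 cells with such a UMI (7.61%, 4.22 to 12.4) and in 1 of 75 without (1.33%, 0.0338 to 7.21). With all UMIs counted, where deeper cells show more of every gene, Ddx4 was found in 53 of 97 KO cells with such a UMI (54.6%, 44.2 to 64.8) and in 41 of 137 without (29.9%, 22.4 to 38.3). The intervals overlapped at equal depth and not with all UMIs. The 97 cells held 695 Ddx4 UMIs. The 137 KO cells with none of the 4 transcripts held 312 Ddx4 UMIs, while 30 WT cells held none of the 4 and no Ddx4, which at 3 counts allows a share of cells with a UMI of up to 10% (upper end of the exact interval 11.6%). Taking the floor of 3 counts for the WT cells, the log2 ratio of KO over WT among these cells was 4.65 (lower end of the exact interval 4.34).

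Correlations across cells, at equal depth and on log2(UMIs + 1), described the same pattern. The cells of a pool share their libraries, so no test is given. In 259 WT cells Pearson's r of Ddx4 ran from 0.0756 with Gdf9 and 0.0771 with Zp3 to 0.197 with H1foo and 0.216 with Dppa3, while the 4 transcripts among themselves ran from 0.631 to 0.725. In 234 KO cells the r of Ddx4 was -0.0112 with Zp3, 0.00789 with H1foo, 0.0463 with Dppa3 and 0.0640 with Gdf9. The 4 transcripts ran from 0.0777 to 0.328 among themselves there.

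The cell numbers in the columns were used to see how far Ddx4 was spread over the table. Splitting each pool into 4 blocks by cell number, which are not libraries, gave KO shares at equal depth of 44.4%, 20.7%, 31.0% and 27.3%. The KO levels were 92.3, 47.9, 68.9 and 30.6 CPM. The WT shares were 4.29%, 5.88%, 2.86% and 10.3%, and the levels 2.22, 1.28, 2.08 and 10.9 CPM. All 4 KO blocks lay above all 4 WT blocks in both measures. The last WT block held 56 of the 73 WT oocyte-RNA cells and 73 of the 102 WT Ddx4 UMIs.

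Ddx4 was more often found in KO cells with more RNA, also at equal depth. With the KO cells split into 3 groups of 78 by total UMIs, the pooled level was 35.0 CPM (27.5 to 43.8) in the shallowest, 47.2 CPM (40.6 to 54.5) in the middle and 73.8 CPM (68.6 to 79.3) in the deepest group. The share of cells after thinning to 20000 UMIs was 23.1% (14.3 to 34.0), 26.9% (17.5 to 38.2) and 43.6% (32.4 to 55.3). The intervals of the shares overlapped, and those of the levels did not overlap between the deepest group and the others. In WT the levels were 14.8, 1.5 and 4.07 CPM, without such an order. The part that the amount of RNA per cell had in the KO order was not tested.

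No gene followed Ddx4 closely in the KO cells. Among 7501 genes found in at least 10% of the 231 KO cells that were not oocyte-RNA cells, the highest r was 0.26, for Lin52, followed by Rab4a, Grk6, Sept1 and Mgst1 at 0.25 each. Lin52 is a subunit of the DREAM cell-cycle complex, Rab4a a GTPase of endosome recycling, Grk6 a kinase of G protein-coupled receptors, Sept1 a septin and Mgst1 a membrane glutathione transferase. The lowest were Ccdc50 at -0.23, Ppp1r15a, a regulator of the integrated stress response, at -0.21 and Lrrc45 at -0.20. No gene passed 0.3, the median over all 7501 was 0.01, and Ddx4 was found in 72 of these cells, so such values in sparse counts are no finding. With Spearman's rho in place of r, 2 of the 5 leading genes were shared.

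In the 73 WT oocyte-RNA cells the leading genes changed when 1 cell was left out. Ddx4 was found in 9 of them at equal depth, and 1 cell held 40% of its thinned UMIs. The highest r values were 0.62 for Dync2li1, 0.61 for AI314180, 0.54 for Cyfip1, 0.51 for Mier3 and 0.51 for Unc13c, and the lowest were -0.43 for Mif, -0.40 for Canx and -0.40 for Ndufa5. With Spearman's rho, 1 of the 5 leading genes was shared. Without the cell with the most thinned Ddx4 UMIs, 72 cells remained, 8 of them with Ddx4, and none of the 5 was still among the leading 5. Their r values were then 0.28 for Dync2li1, 0.22 for AI314180, 0.39 for Cyfip1, -0.029 for Mier3 and 0.10 for Unc13c, and the highest of any gene was 0.59.

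The KO cells with and without Ddx4 at equal depth were then compared through gene lists. There were 72 cells with and 159 without, all below the oocyte level, and their median totals before thinning were 64805 and 47321 UMIs. The background of the comparison was 9823 genes with at least 20 UMIs, of which 6.02% were at least 2-fold higher and 8.4% at least 2-fold lower in the cells with Ddx4. Ratios below are of UMIs per cell at equal depth, cells with over cells without Ddx4, on the log2 scale.

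In sum and at equal depth, myeloid genes were slightly higher in the cells with Ddx4. The 17 myeloid-priming genes in the table had a summed log2 ratio of 0.11 (0.06 to 0.17). Of them, 10 lay above a ratio of 1 and 7 below, against 48.8% of all 9823 genes above. At least 2-fold higher were 2 of 17, and none was 2-fold lower, beside 6.02% and 8.4% of all 9823 genes. The 2 were Cebpb, a transcription factor of myeloid cells, at 1.67 (0.34 to 3.08) and Cd48 at 1.37 (0.15 to 2.61), with 13 and 14 UMIs in the cells with Ddx4. Csf3r, the receptor of the granulocyte growth factor G-CSF, was at 0.74 (0.33 to 1.16) and Ikzf2, an Ikaros-family factor, at 0.61 (0.22 to 0.99). Itgam, the integrin chain CD11b, was at 0.56 (-0.03 to 1.13) and was found in 16.7% (8.92 to 27.3) of cells with and 16.4% (11 to 23.0) of cells without Ddx4. Tyrobp, an ITAM adapter of myeloid receptors, was found in 51.4% (39.3 to 63.4) and 41.5% (33.8 to 49.6). The study had picked both genes, like Ddx4, on these same cells. Among single KO cells, their shares with and without Ddx4 had overlapping intervals. S100a6, a calcium-binding protein, had a log2 ratio of 0.39 (0.26 to 0.51), and Prtn3, a granule protease of myeloid precursors, of -0.17 (-0.35 to 0.01).

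Cell-cycle genes were higher in sum in the cells with Ddx4, but not at every depth. The 21 genes had a summed log2 ratio of 0.46 (0.39 to 0.53). Of the 20 with at least 20 UMIs, 18 lay above a ratio of 1, against 48.8% of all 9823 genes, and 3 were at least 2-fold higher. Mki67, a marker of cycling cells, had a log2 ratio of 1.20 (0.84 to 1.56) and was found in 23.6% (14.4 to 35.1) of the cells with and 18.2% (12.6 to 25.1) of those without Ddx4. Top2a, the topoisomerase of dividing cells, had a log2 ratio of 0.93 (0.72 to 1.14). The median cell held 13 UMIs of the list with and 11 without Ddx4, and the upper quartile was 44.5 and 23.5, so the upper quartiles lay further apart than the medians. Within the 3 groups of depth the ratio was 0.41 (0.25 to 0.57), -0.98 (-1.16 to -0.80) and 0.88 (0.78 to 0.99), so its direction turned in the middle group. Between the pools the same list went the other way from Ddx4, with a median log2 ratio of KO over WT of -0.34.

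Stem cell genes were near equal in sum. The 20 HSC genes had a log2 ratio of -0.05 (-0.11 to 0.00), and the 7 HSC markers of -0.20 (-0.32 to -0.09). Kit, the stem cell factor receptor used in the sort, was found in 45.8% (34.0 to 58.0) of cells with and 66.0% (58.1 to 73.4) of cells without Ddx4. Esam, an adhesion molecule of HSCs and endothelium, had a log2 ratio of -1.29 (-2.00 to -0.64). All 7 markers were detected in the cells with Ddx4.

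In sum, markers of other blood and marrow cells were not higher beyond counting error in the cells with Ddx4, although single markers were. The 2 neutrophil markers in the table held 2 UMIs in the cells with and 35 in the cells without Ddx4, and the 2 erythroid markers 4 and 40. The 2 macrophage markers in the table were found in 30.6% and 28.3% of cells. The 6 megakaryocyte markers had a log2 ratio of -0.03 (-0.12 to 0.07) and the 5 stromal and endothelial markers of 0.24 (-0.04 to 0.51). Among them Ppbp, a platelet chemokine, was at 1.20 (0.63 to 1.77) and Emcn, an endothelial sialomucin, at 0.48 (0.11 to 0.84). Of 10 male germ cell markers, 1 (Dazl) was in the table, with 1 and 2 UMIs. The lymphoid markers had no member in the table.

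The oocyte list was higher in the cells with Ddx4, through few UMIs. It held 280 UMIs in the cells with and 451 in the cells without Ddx4, a log2 ratio of 0.46 (0.23 to 0.67). Tle6 alone held 139 and 215 of these. Zp3 held 13 and 16 UMIs, H1foo 20 and 37, Dppa3 17 and 25, and Gdf9 10 and 7. For Zp3, H1foo and Dppa3 the interval of the log2 ratio included 0, and for Gdf9 the ratio was 1.66 (0.12 to 3.29). The Gdf9 UMIs lay in 3 cells with Ddx4 (4.17%) and 6 cells without it (3.77%), so the shares of cells were alike.

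Interferon-response genes, DEAD-box helicases and germ-granule genes had sums at equal depth whose intervals included 0. Their log2 ratios were -0.03 (-0.11 to 0.05) for 21 interferon genes, 0.00 (-0.05 to 0.04) for 34 helicases and -0.19 (-0.66 to 0.26) for 10 germ-granule genes. With all UMIs in place of thinned ones, the germ-granule ratio was -0.59 (-0.83 to -0.35) and the helicase ratio -0.03 (-0.05 to -0.0038), and neither interval included 0. Med23 itself was found in 7 of 72 cells with and 6 of 159 cells without Ddx4, with 12 and 26 UMIs.

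**Figure D4:**
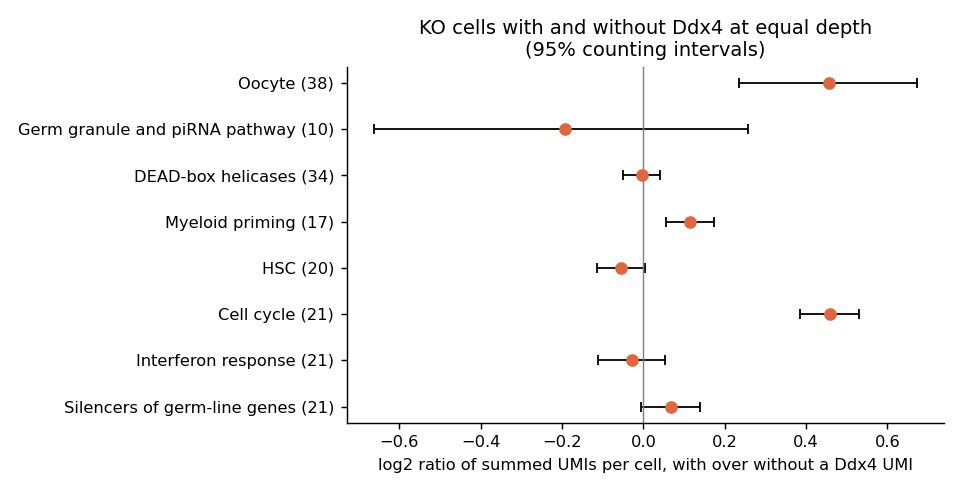
Log2 ratio of summed UMIs per cell at 20000 UMIs in KO cells, 72 with over 159 without a Ddx4 UMI, for 8 gene lists (number of genes in parentheses), with 95% counting intervals. The cell-cycle and oocyte lists lie at 0.46, the myeloid list at 0.11, and the interval of the other 5 lists includes 0.

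The other germ-line genes in the table did not share the KO over WT ratio of Ddx4. Of 25 germ-granule and piRNA-pathway genes, 10 were in the table. In KO against WT, 0 of the 10 were at least 2-fold higher and 4 were at least 2-fold lower, beside 6.98% and 7.94%, respectively, of all 10720 genes. Per the study's methods, genes were kept by their mean count over all cells of both genotypes. Members could therefore enter the table through the WT oocyte-RNA cells alone, so these counts are a description and not a test. Tdrd12, a Tudor-domain protein of the piRNA pathway, had 160 UMIs in WT and 0 in KO. Mov10l1, the piRNA helicase, had 119 and 0. With the floor of 3 counts for the KO pool, their log2 ratios were -5.33 and -4.90 (upper ends of the exact intervals -5.01 and -4.58). Of these WT counts, 96.9% of Tdrd12 and 95% of Mov10l1 lay in oocyte-RNA cells. Without those cells 5 and 6 WT UMIs remained, and the log2 ratios at that floor were -0.79 and -1.05. The upper end of the interval of Mov10l1 was then -0.29. Gtsf1, a partner of Piwi proteins, had 1737 and 40 UMIs, and 92.2% of the WT counts lay in oocyte-RNA cells. Dnd1, an RNA-binding protein of primordial germ cells, had 92 UMIs in WT and 100 in KO, at a log2 ratio of 0.53 (0.11 to 0.95), and Pld6, a mitochondrial enzyme of piRNA production, had 158 and 113, a ratio of -0.08 (-0.44 to 0.28).

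Rnf17, a Tudor-domain protein of male germ cells, was the one of the 10 that passed 2-fold without the oocyte-RNA cells. It then had 20 UMIs in WT and 77 in KO, a log2 ratio of 1.89 (1.17 to 2.68), while over all kept cells it was 0.14 (-0.32 to 0.59). Without those cells, 8.8% of all genes were at least 2-fold higher and 6.63% at least 2-fold lower in KO, and 2 of the 10 were lower. In the KO cells with Ddx4 it held 1 UMI, and in those without 17. Dazl, an RNA-binding protein that is often expressed with Ddx4 in germ cells, had 37 and 21 UMIs there, a ratio of -0.87 (-1.71 to -0.06).

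A second germ-line list, of genes whose promoters are methylated in somatic cells, had 4 of 21 members in the table. They were Dazl, Mov10l1, Dpep3 and Tdrkh. The same limit of entry to the table applied to them, so their counts are a description too. Over all kept cells all 4 had lower CPM in KO, and 3 of 4 were at least 2-fold lower, beside 7.94% of all genes. Without the oocyte-RNA cells 1 of 4 was at least 2-fold lower and 1 at least 2-fold higher, beside 6.63% and 8.8%. The latter was Dpep3, a dipeptidase of the testis, which had 222 UMIs in WT and 7 in KO over all kept cells, with 98.6% of the WT counts in oocyte-RNA cells. In the cells that remained, 3 WT and 7 KO UMIs put it at 1.17 (-0.96 to 3.76) on the log2 scale, so its direction turned, with an interval that included 0. Tdrkh, a mitochondrial Tudor-domain protein, had 229 and 92. Their start regions held 28 CG dinucleotides for Dazl, 20 for Mov10l1, 25 for Tdrkh and 12 for Dpep3, fewer than the 38 of Ddx4.

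The silencers of germ-line genes were described too, from a list added after the data had been seen. Of 22 genes, 21 were in the table, and none was 2-fold different between the pools, with or without the oocyte-RNA cells. Of all genes, 6.98% were at least 2-fold higher and 7.94% lower in KO, and 8.8% and 6.63% without those cells. The median log2 ratio of the 21 silencers was 0.09, beside 0.02 over all genes, and 0.25 without those cells. Pcgf6 and Mga, subunits of the Polycomb complex PRC1.6 that binds E-boxes at germ-line promoters, went in opposite directions, at -0.87 (-1.11 to -0.63) and 0.59 (0.48 to 0.70). Dnmt1, the maintenance DNA methyltransferase, was at -0.77 (-0.84 to -0.70) over all kept cells and at -0.23 (-0.31 to -0.15) without the oocyte-RNA cells. Trim28, a corepressor of zinc-finger proteins, was at 0.82 (0.73 to 0.91) and Ring1, a Polycomb ubiquitin ligase, at 0.88 (0.63 to 1.13). Among KO cells the list had a log2 ratio of 0.07 (0.00 to 0.14) with over without Ddx4. Dnmt3b, a de novo DNA methyltransferase, was found in 22.2% (13.3 to 33.6) of cells with and 34.6% (27.2 to 42.5) of cells without. It was 1 of 3 of the 21 at least 2-fold lower, beside 8.4% of all 9823 genes.

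The DEAD-box relatives of Ddx4 stayed near equal between the pools. Of 36 listed helicases, 34 were in the table, with a median log2 ratio of -0.07. In KO 1 was at least 2-fold higher and 1 at least 2-fold lower, beside 6.98% and 7.94% of all genes. The higher one was Ddx3y, a Y-linked translation helicase, at 1.02 (0.88 to 1.16). Ddx31 and Ddx49, both of the nucleolus, were at 0.60 (0.30 to 0.90) and 0.57 (0.11 to 1.04). Ddx59 was the lowest, with 255 UMIs in WT and 29 in KO, at -2.73 (-3.34 to -2.17). Ddx51 was at -0.75 (-1.08 to -0.42) and Ddx28, a mitochondrial helicase, at -0.54 (-0.82 to -0.27). Without the oocyte-RNA cells 2 of 34 were at least 2-fold higher and 1 at least 2-fold lower, beside 8.8% and 6.63% of all genes. The median was then -0.08.

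The genes next to Ddx4 did not share its ratio. Of the 3 annotated genes on each side in the RefSeq annotation of GRCm38.p6 (Gm3226, Il31ra and Il6st, and Slc38a9, Gm52034 and Gm18883), Il6st and Slc38a9 were in the table. Il6st, which encodes the shared receptor chain gp130, had 127 UMIs in WT and 150 in KO, at a log2 ratio of 0.65 (0.30 to 1.0). Slc38a9, an amino acid sensor of the lysosome that lies beside Ddx4, had 326 and 392, a ratio of 0.67 (0.46 to 0.89). Both lay below the 3.71 of Ddx4, and without the oocyte-RNA cells they were at 0.34 (-0.03 to 0.70) and 0.89 (0.64 to 1.14). Among KO cells, Slc38a9 was found in 25% (15.5 to 36.6) of those with and in 15.7% (10.4 to 22.3) of those without Ddx4.

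Myeloid genes, by contrast, had higher CPM in the KO pool in most cases, as Ddx4 did. Of 17 in the table, 9 were at least 2-fold higher, beside 6.98% of all genes, and none lower, and their median log2 ratio was 1.09. The ratio was 3.67 (3.20 to 4.18) for Itgam, with 40 and 384 UMIs, 1.69 (1.61 to 1.78) for Prtn3 and 1.66 (1.58 to 1.74) for S100a4. Gfi1, a transcriptional repressor, was at -0.35 (-0.84 to 0.13) and Cd48, excluded in the sort, at -0.37 (-0.78 to 0.02). Part of this list was chosen by the study on these cells, so its direction is not independent evidence. Other lists moved the same way between the pools. Of 21 interferon genes, 6 were at least 2-fold higher in KO and all 21 lay above 0, and the 2 macrophage markers in the table, C1qa and Cd68, were at 2.15 (1.56 to 2.78) and 0.79 (0.64 to 0.93). Their part in these ratios was not tested.

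**Figure D5:**
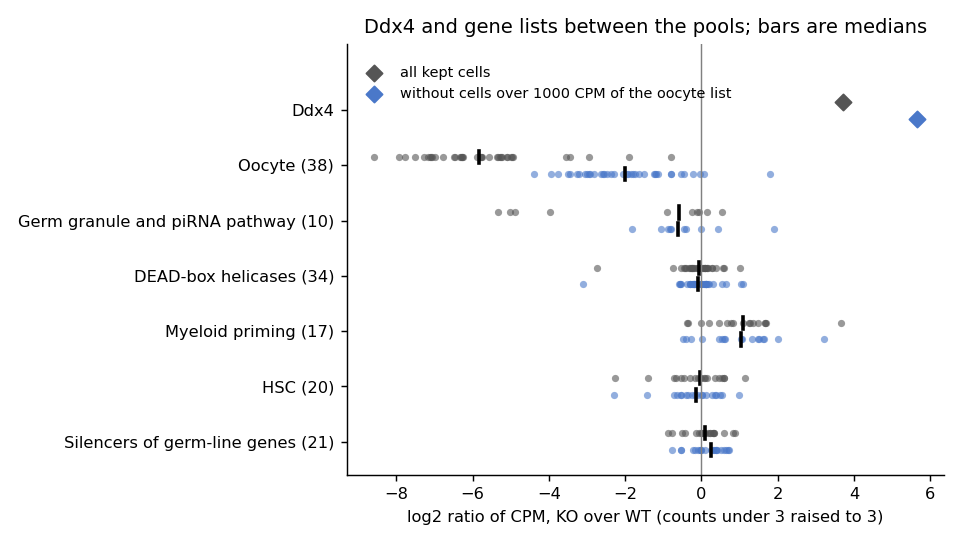
Log2 ratio of CPM of KO over WT for Ddx4 (diamonds) and for each gene of 6 lists (points, number of genes in parentheses), over all kept cells (grey) and without the oocyte-RNA cells (blue), with list medians as bars. Ddx4 lies at 3.71 and 5.66, to the right of every other point shown, and the oocyte list lies to the left.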

How the data were processed

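The values deposited by the authors are log2 of a normalized UMI count plus 1, for 10720 genes in 586 cells. Per the study's methods, alignment used a mouse transcriptome of build mm9, reads sharing a UMI were counted once, and cells and genes with low counts were removed. The aligner and the normalization were not given in the sources used here. Within each cell the values were whole multiples of 1 step, and UMI counts were recovered from it (tolerance 0.01 of a count, 100% whole). No column was left without a label.

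Cells with at least 2000 genes and 20000 UMIs were kept. The study states 586 retained cells, as in the table, but only 493 of them passed these minimums over the genes deposited. UMIs were summed per genotype and scaled to CPM. Counts under 3 were raised to 3 in ratios, which have exact 95% intervals (Clopper-Pearson). Shares were taken after thinning each cell to 20000 UMIs. Doublets were not searched for (picking was by hand), and no clustering was done. The pipeline was tested on simulated data. Python 3.11.15, numpy 2.4.6, scipy 1.17.1 and pandas 2.3.3 were used.

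Ddx4, the gene lists and the thresholds were chosen with earlier results of these data known. The genes named were Ddx4, the 4 oocyte transcripts, Med23, up to 6 members of a list or the 3 highest and 3 lowest ratios with at least 20 UMIs, the 5 most and 3 least like Ddx4, and the 3 neighbours on each side. Other genes were named after their values were seen.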

Additional observations from a re-analysis of the deposited data

How the results depend on the processing

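Of 63 alternative values for 16 results, 49 planned and 14 chosen after seeing the data, 40 stayed within the counting interval of the reported value (for counts of shared genes, close to it), 23 moved further and 0 reversed. The log2 ratio of Ddx4 moved to 3.06 after thinning, 4.18 when the top cell of both pools was dropped and 2.81 on the authors' normalized scale. It was 5.66 without oocyte-RNA cells and 5.07 without the 10 top cells of each pool. Without cells with any of the 4 transcripts it was 4.65 at the floor of 3 counts (lower end of the exact interval 4.34). As a mean over cells of log2(CPM/100 + 1) the difference was 0.35, on another scale. Scaling shifted all ratios by -0.03 to -0.02.

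The WT share moved to 10.8% unthinned, 2.70% at 10000 UMIs, 1.93% for at least 2 UMIs and 3.23% without oocyte-RNA cells, and the KO share to 40.2% unthinned and 21.8% for at least 2 UMIs. With a 2000 CPM level, the share of WT Ddx4 UMIs in oocyte-RNA cells was 63.7%. Ddx4 per 1000 oocyte UMIs in KO was 569 at 500 CPM and 1246 without Tle6 and Zbed3. Of the 5 genes most like Ddx4 in KO cells, 2 were shared by Spearman's rho and 1 without thinning, and in oocyte-RNA cells 1 by Spearman's rho and 0 without the cell with the most Ddx4. The myeloid ratio was 0.0431 without thinning, and the cell-cycle ratio 0.65 for at least 2 Ddx4 UMIs and 0.37 without the 10 top cells. Apart from the choice of cells and counts these alternatives make, the cause was not tested.

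No paired analysis was possible because no column states its library. For the same reason the count models per library and the fits leaving out each library were not run. With 1 pool per genotype, the spread between animals and libraries is unknown, and genotype and library cannot be told apart. At a WT level of 102 UMIs, differences within the WT pool were not detectable in most single cells.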
